A study of Mus musculus with 6 samples.

Results

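The genes described here are 40 genes of protein folding and protein entry in the endoplasmic reticulum (ER). They were taken by symbol from a count table of 24498 genes: 8 chaperones and co-chaperones, 2 lectin chaperones, 5 disulphide isomerases or related oxidative folding proteins, 7 subunits of the translocon, 3 of the signal peptidase, 7 of the oligosaccharyltransferase, 4 stress sensors or transducers, and 4 genes of ER-associated degradation. All 40 were in the table and all 40 passed the filter on low counts that left 13846 genes for testing.

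Secreted and membrane proteins enter the ER through the Sec61 channel, lose their signal peptide, receive N-linked sugars and are folded by chaperones of the Hsp70 and Hsp90 families, by lectins that bind sugars and by enzymes that form disulphide bonds. When unfolded protein builds up, the sensors Ire1 (gene Ern1), Perk (gene Eif2ak3) and Atf6 raise folding capacity through the transcription factors Xbp1, Atf4 and cleaved Atf6, a programme called the unfolded protein response. The luminal epithelium of the prostate is a secretory tissue that depends on androgen, and castration removes the main source of that hormone.

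Bulk RNA-seq libraries, in 3 groups of 2, were made from epithelial cells of digested prostates of male mice, sorted for a lineage marker. In the line labelled Nkx, an inducible Cre recombinase, CreER(T2), marks cells through an EYFP reporter at the ROSA26 locus. In the line labelled Clu, CreER(T2) driven by the gene of the secreted chaperone clusterin marks cells through a tdTomato reporter at the same locus. Nkx-marked cells came from intact males (Nkx intact) and from males whose testes were removed at 8 weeks, 4 weeks before they were killed (Nkx castrate), and Clu-marked cells came from intact males (Clu intact), which were left untouched over the same period. All groups share the sort for the marker and an input of 2 ng of total RNA. The labels give no time of Cre induction, no gate beyond the marker and no batch. Nor do they say if replicate libraries are separate animals, so that p-values measure a spread between libraries that may be technical.

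Library totals lay between 10220118 and 17412874 counts, and each library is named here by its group and replicate number. Levels are given as CPM, counts scaled to the library total after TMM adjustment. Luminal markers were abundant in every library, the 10 listed summing to between 5488 and 13589 CPM, and the 20 basal markers summed to between 3922 and 6644 CPM. Nkx castrate 1 stood apart by its markers of other cells: 15 plasma cell markers summed to 371 CPM there and to between 14.9 and 66.3 CPM in the other 5 libraries, and 19 leukocyte markers to 524 CPM against 57.2 to 243 CPM. Plasma cells are rich in the same ER genes. Of their 15 markers, Ighm was the most abundant in Nkx castrate 1, at 195 CPM against 30.2 and 10.9 CPM in Nkx intact, followed by Igkc (76.6 CPM), Prdm1 (28.5 CPM), Jchain (26.8 CPM), Igha (17.5 CPM) and Iglc1 (14.1 CPM). Mzb1 and Tnfrsf17 had 2 and 6 reads in Nkx castrate 1 and 0 in the other 5 libraries, and Ighg1 had 0 in all 6. Irf4 and Ighg2b, at 2.81 CPM each in Nkx castrate 1, stood at 2.49 and 3.25 CPM in Nkx intact 1. Ighg2c was highest in Nkx castrate 2, at 3.84 CPM. The summed level of 20 markers of fibroblasts and smooth muscle was 3456 CPM in Nkx castrate 1, while it lay between 804 and 1997 CPM in the other 5 libraries, and that of 12 endothelial markers lay between 68.1 and 1212 CPM, highest in Clu intact 1. The median fold change after castration is therefore also given without that library.

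Per kilobase of exon, the most abundant of the 40 genes in Nkx intact were Hspa5 (925 CPM per kb), the Hsp70 chaperone of the ER also called BiP, and Calr (905 CPM per kb), the lectin chaperone calreticulin. Next came Hsp90b1 (556 CPM per kb), the ER member of the Hsp90 family, P4hb (476 CPM per kb), the archetypal disulphide isomerase, and Pdia4 (464 CPM per kb). Dad1, a small subunit of the oligosaccharyltransferase, and Eif2ak3 lay lowest at 20.1 and 20.5 CPM per kb. The order of levels was not the same after castration. Sdf2l1, a partner of the ER Hsp70 system, went from place 14 to place 40 of 40, Creld2, a secreted and ER-resident factor of the stress response, from place 6 to place 22, and Ern1 from place 31 to place 14.

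Of all counts, the 40 genes together took 1.79% and 2.23% in Nkx-marked cells of intact males, 0.760% and 0.777% in those of castrated males, and 1.65% and 2.16% in Clu-marked cells. Both castrate libraries lay below the 4 libraries of intact males. Summed over the 40 genes, the level averaged 20282 ± 3208 CPM (SD, n = 2) for Nkx intact, 7828 ± 562 CPM (SD, n = 2) in Nkx castrate and 18688 ± 3899 CPM (SD, n = 2) in Clu intact. The sum in Nkx intact was 2.59 times that in Nkx castrate. In bulk RNA, fewer cells of a type and less RNA per cell cannot be told apart.

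**Figure D1:**
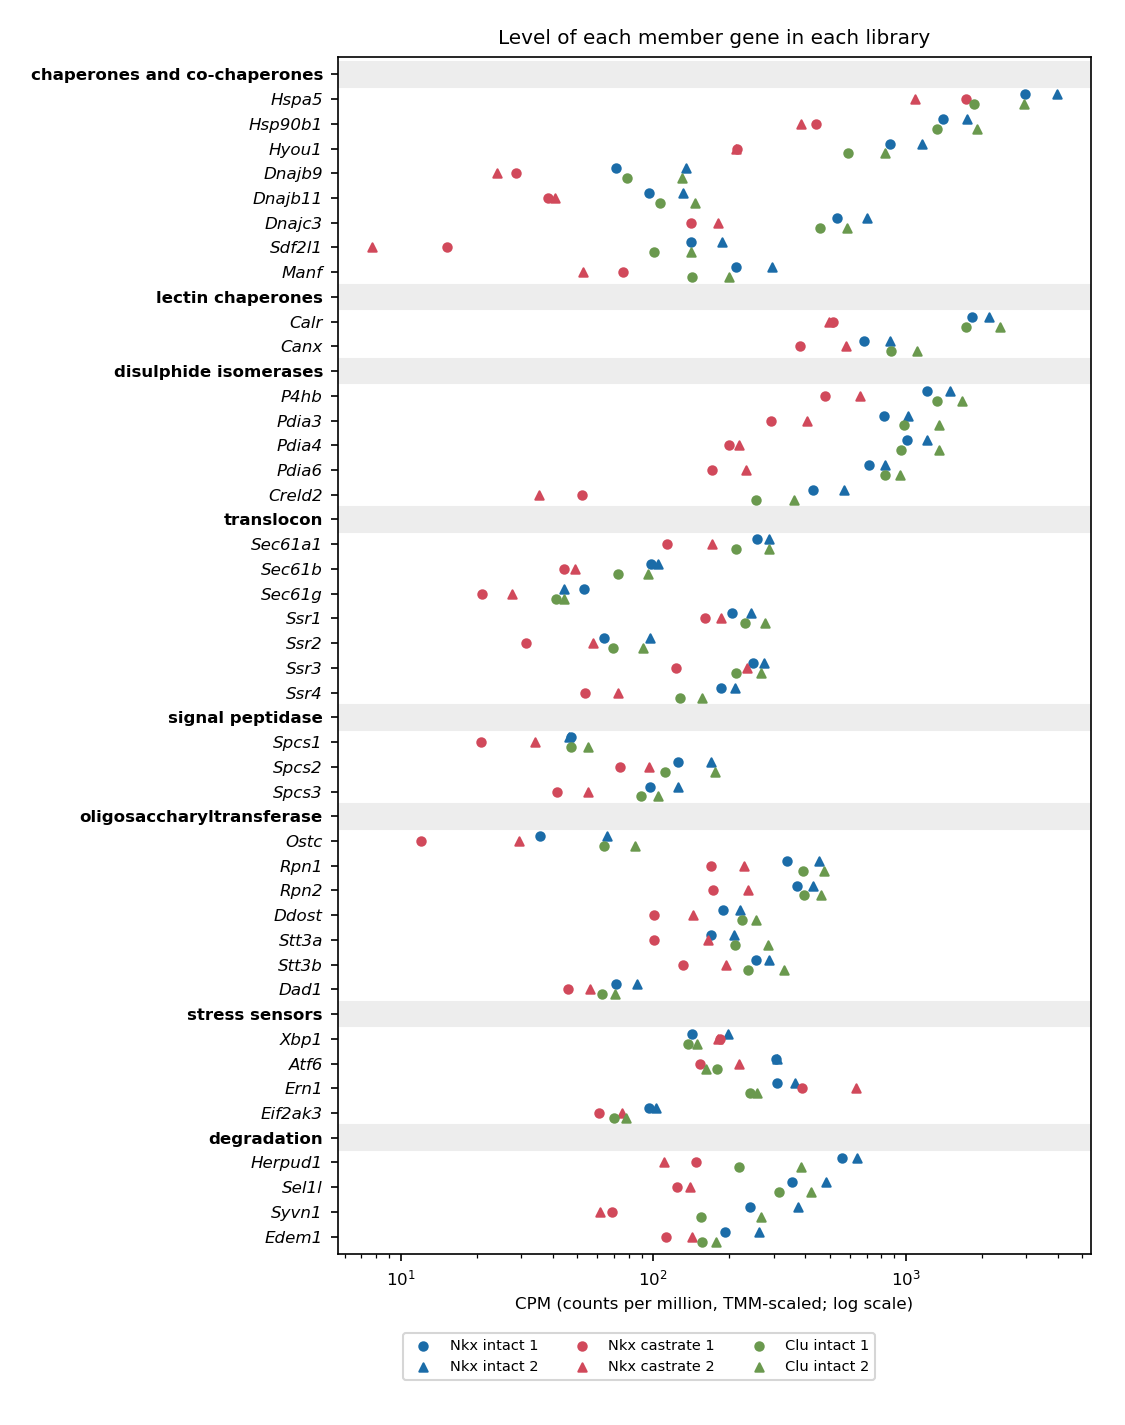
Level of each of the 40 genes (rows, grouped by role) in each of the 6 libraries, in CPM on a log axis; colour marks the group and marker shape the replicate. For 38 genes both Nkx castrate libraries lie to the left of both Nkx intact libraries, and Xbp1 is the gene whose libraries overlap.

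The promoters of several of these genes hold the ER stress response element (ERSE), to which Atf6 and Xbp1 are known to bind. These stretches are shown because 9 of the 10 genes that hold one were lower after castration. All of the 10 are folding or degradation genes. RefSeq promoter windows of 300 bases, from 250 before to 50 after the transcription start on build GRCm38.p6, were at hand for 33 of the 40 genes. The form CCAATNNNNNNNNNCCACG, read on both strands, was found for 8 of those 33 genes (24.2%). Of all 27025 genes with a window it was found for 37 (0.137%), and for 0.178% of tested genes. The related form ERSE-II, ATTGGNCCACG, was found for 2 of the 33, for 12 of all genes with a window (0.0444%) and for 0.0749% of tested genes. The 33 genes come from a list chosen for its role in the ER, which includes known stress response genes. A high share among them follows in part from that choice, so these shares cannot test for enrichment and are given as a description. Each stretch below reads 5′ to 3′ on the strand of the gene, with 10 bases on either side and the fixed letters of the element in capitals. All end before the transcription start, and on genes where the element lies on the other strand it reads as its reverse complement.
Hspa5 (chr2:34772015-34772053, plus strand): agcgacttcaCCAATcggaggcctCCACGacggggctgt
Hsp90b1 (chr10:86705523-86705666, minus strand): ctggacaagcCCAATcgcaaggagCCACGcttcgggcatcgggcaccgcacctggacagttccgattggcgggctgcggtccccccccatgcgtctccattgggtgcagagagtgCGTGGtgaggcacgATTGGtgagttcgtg
Dnajc3 (chr14:118937817-118937855, plus strand): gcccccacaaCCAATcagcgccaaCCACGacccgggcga
Calr (chr8:84847065-84847103, minus strand): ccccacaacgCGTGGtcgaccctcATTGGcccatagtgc
Canx (chr11:50325790-50325828, minus strand): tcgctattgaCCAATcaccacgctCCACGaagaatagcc
Pdia6 (chr12:17266481-17266519, plus strand): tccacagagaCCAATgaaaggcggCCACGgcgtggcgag
Creld2 (chr15:88819510-88819548, plus strand): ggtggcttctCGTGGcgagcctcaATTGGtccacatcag
Syvn1 (chr19:6046522-6046560, plus strand): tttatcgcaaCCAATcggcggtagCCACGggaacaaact
Herpud1 (chr8:94386367-94386397, plus strand): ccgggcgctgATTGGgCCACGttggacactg

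Hsp90b1 holds 2 matches, 1 in each orientation, and Herpud1 holds the ERSE-II form. Dnajb11 also holds ERSE-II, from base 7 to base 17 after its start, and is not printed. The other forms searched, TGACGTGG (an element read by Xbp1 and Atf6) and TGATGCAAT (an element of Atf4 and its partners), were found for 0 of the 33 genes. Of all genes with a window, 0.714% and 0.222% held them. The short block CCACG alone was found for 26 of the 33 genes, but also for 35.5% of all genes with a window and 51.3% of tested genes. A match is a description of the letters and does not show that a factor binds there.

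Comparing Nkx castrate with Nkx intact asks how the ER genes of Nkx-marked cells stood after androgen loss. Of the 40 genes, 23 were lower in Nkx castrate, 0 were higher and 17 did not pass. Over all genes tested, 4.59% were lower and 4.02% higher. Calls here and below are at an adjusted p under 0.05 from the quasi-likelihood F test of edgeR, adjusted by Benjamini-Hochberg over the 13846 genes and written as the edgeR adjusted p from here on. The median log2 fold change of the 40 genes was -1.16, against 0.05 over all genes tested, and the point estimates of 38 lay below 0. Both castrate libraries lay below both intact libraries for those 38 genes, which was the case for 24.6% of all genes tested.

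All 8 chaperones and co-chaperones fell, with a median log2 fold change of -1.95. Sdf2l1 stood at 141 and 187 CPM in Nkx intact, at 15.3 and 7.69 CPM after castration, and at 100.4 and 141 CPM in the Clu libraries. It fell 14.2-fold after castration, the largest change among the 40 genes (log2 fold change -3.83, SE 0.36, edgeR adjusted p = 0.00139). Hyou1, a large Hsp70-like protein that exchanges the nucleotide of BiP, stood at 870 and 1155 CPM in Nkx intact and at 215 and 213 CPM in Nkx castrate. Its fall was 4.73-fold (log2 fold change -2.24, SE 0.24, edgeR adjusted p = 0.00221). Manf, an ER-resident and secreted protein that binds BiP, fell 3.94-fold from 212 and 295 CPM to 75.9 and 52.9 CPM (log2 fold change -1.98, SE 0.27, edgeR adjusted p = 0.00578). In each of these genes the lower intact library was more than 2 times the higher castrate library.

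Hspa5 and Hsp90b1 are named here for their abundance, after their values were seen. Hspa5 stood at 2976 and 3971 CPM in Nkx intact and at 1729 and 1087 CPM in Nkx castrate, a 2.47-fold fall and the smallest among the chaperones (log2 fold change -1.30, SE 0.31, edgeR adjusted p = 0.0431). Hsp90b1 fell 3.80-fold, from 1398 and 1744 CPM to 440 and 387 CPM (log2 fold change -1.93, SE 0.24, edgeR adjusted p = 0.00381). The DnaJ co-chaperones, which bring clients to BiP and stimulate its ATPase, fell as well, Dnajb9 by 1.96, Dnajb11 by 1.53 and Dnajc3 by 1.94 on the log2 scale.

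Of the lectin chaperones, which hold glycoproteins during folding, Calr fell 3.92-fold, from 1825 and 2129 CPM to 514 and 496 CPM (log2 fold change -1.97, SE 0.22, edgeR adjusted p = 0.00241). Its membrane-bound relative Canx stood at 681 and 866 CPM in Nkx intact and at 381 and 580 CPM in Nkx castrate and was not called (log2 fold change -0.69, SE 0.25, edgeR adjusted p = 0.150). The difference between the fold changes of the 2 genes was not tested.

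All 5 genes of oxidative folding fell. Creld2 went from 430 and 568 CPM to 52.1 and 35.4 CPM, an 11.4-fold fall (log2 fold change -3.51, SE 0.29, edgeR adjusted p = 0.000879, the smallest of the 40). Pdia4 went from 1009 and 1219 CPM to 199 and 218 CPM, 5.34-fold lower (log2 fold change -2.42, SE 0.23, edgeR adjusted p = 0.00137), and Pdia6 from 715 and 831 CPM to 170 and 233 CPM, 3.83-fold lower (log2 fold change -1.94, SE 0.22, edgeR adjusted p = 0.00249). P4hb fell 2.39-fold and Pdia3, the isomerase that works with calreticulin and calnexin on glycoproteins, 2.63-fold. No library of either group overlapped with the other group in any of the 5 genes.

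Genes of protein entry and glycosylation had smaller fold changes at the median. Among the 17 subunits of the translocon, signal peptidase and oligosaccharyltransferase 6 were called lower, with a median log2 fold change of -0.86, against 14 of 15 folding genes with a median of -1.94. All 17 point estimates lay below 0, between -1.64 and -0.37. In the translocon, Ssr4, a subunit of the translocon-associated protein complex, fell 3.13-fold from 185 and 210 CPM to 53.5 and 72.9 CPM (log2 fold change -1.64, SE 0.21, edgeR adjusted p = 0.00445). The small channel subunits Sec61b (97.8 and 104 CPM against 44.3 and 48.9 CPM) and Sec61g (53.2 and 44.4 CPM against 21.0 and 27.5 CPM) fell 2.17-fold and 2.01-fold. The channel itself, Sec61a1, was not called at 258 and 288 CPM against 114 and 170 CPM (edgeR adjusted p = 0.0538), nor were Ssr1, Ssr2 and Ssr3, the partners of Ssr4.

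In the signal peptidase, which cuts off signal peptides, Spcs3 fell 2.30-fold from 97.2 and 126 CPM to 41.8 and 55.4 CPM (log2 fold change -1.20, SE 0.22, edgeR adjusted p = 0.0170), and Spcs1 and Spcs2 were not called. In the oligosaccharyltransferase, which transfers the sugar chain to the nascent protein, the ribophorins Rpn1 and Rpn2 fell. Rpn1 stood at 338 and 453 CPM against 169 and 229 CPM, and Rpn2 at 372 and 428 CPM against 172 and 238 CPM, falls of 1.99-fold and 1.95-fold. The catalytic subunits Stt3a and Stt3b, with Ddost, Dad1 and Ostc, were not called, at log2 fold changes between -1.29 and -0.51. Ostc had the largest of these but also the widest spread, at 12 and 29.4 CPM in the castrate libraries.

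Of the degradation genes, which return misfolded proteins to the cytosol, 3 of 4 fell. Syvn1, the ubiquitin ligase of the retrotranslocation complex, went from 241 and 374 CPM to 68.4 and 61.7 CPM (log2 fold change -2.24, SE 0.31, edgeR adjusted p = 0.00597). Its partners Herpud1 (562 and 644 CPM to 148 and 110 CPM) and Sel1l (354 and 485 CPM to 125 and 139 CPM) fell 4.66-fold and 3.18-fold. Edem1, a mannosidase-like protein that marks glycoproteins for disposal, stood at 192 and 262 CPM against 113 and 142 CPM and was not called (edgeR adjusted p = 0.0530).

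The 4 stress sensors and transducers did not pass in either direction. Xbp1 stood at 143 and 198 CPM in Nkx intact and at 183 and 181 CPM in Nkx castrate, and its libraries overlapped (log2 fold change 0.09, SE 0.19, edgeR adjusted p = 0.834). Ern1 stood at 309 and 366 CPM against 389 and 634 CPM, with both castrate libraries the higher (log2 fold change 0.60, SE 0.24, edgeR adjusted p = 0.187). Atf6 stood at 307 and 309 CPM against 153 and 220 CPM (edgeR adjusted p = 0.0731), and Eif2ak3 at 96.2 and 103 CPM against 60.8 and 75.1 CPM (edgeR adjusted p = 0.124). As a share of the summed level of the 40 genes, the sensors went from 4.75% and 4.32% in Nkx intact to 10.6% and 13.5% in Nkx castrate. The mean sum of the 40 genes went from 20282 to 7828 CPM, while that of the sensors was 915 and 948 CPM. The counts are per gene, so spliced and unspliced Xbp1 and the activity of the sensor proteins were not measured.

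**Figure D2:**
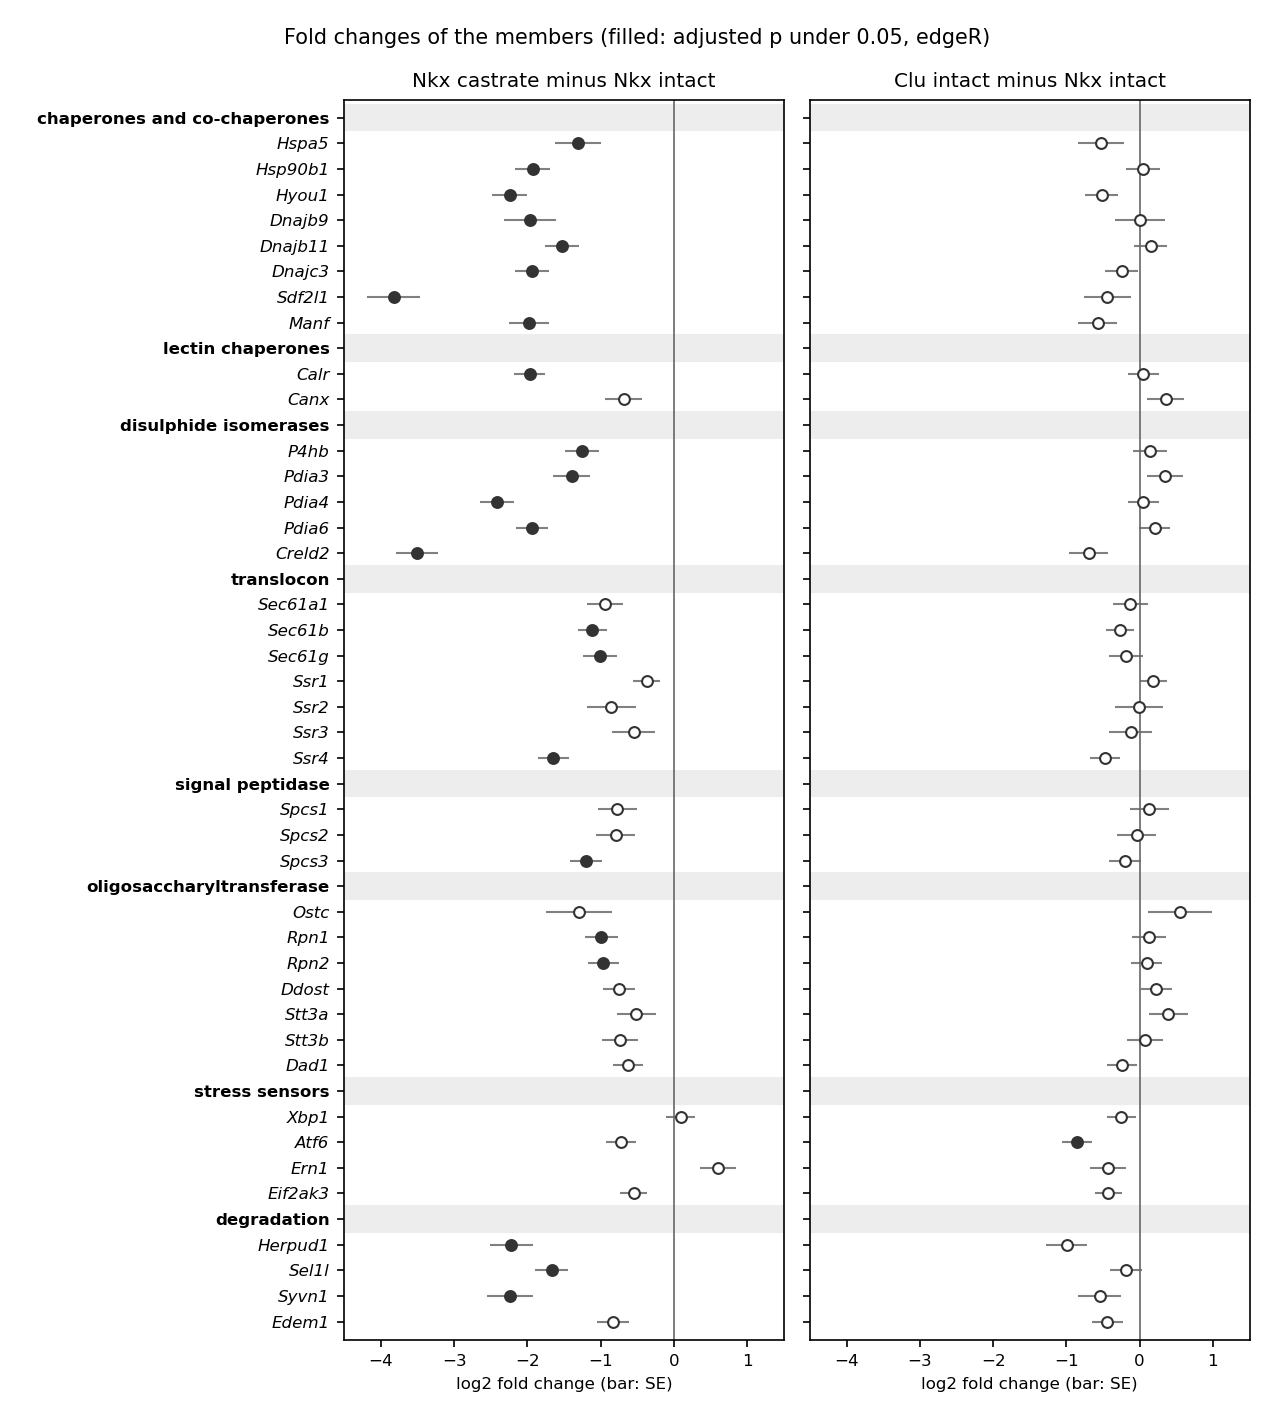
Log2 fold change of each of the 40 genes in Nkx castrate against Nkx intact and in Clu intact against Nkx intact (bars: SE from the fitted model; filled: edgeR adjusted p under 0.05). In Nkx castrate against Nkx intact 23 filled points lie below 0, and in Clu intact against Nkx intact 1 does.

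The count of 23 depends on the intact libraries. Leaving out Nkx intact 1 gave 15 and leaving out Nkx intact 2 gave 7, where 1.24% and 0.917% of all genes were called lower, and 7 genes were called with any library left out (Hyou1, Dnajc3, Sdf2l1, Calr, Pdia4, Pdia6 and Creld2). The library with the most plasma cell and leukocyte marker RNA was Nkx castrate 1. Without it, the median log2 fold change of the 40 genes was -0.92, against -0.02 over all genes tested. No estimate of the 40 changed sign against the fit of all libraries.

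Between the castrate libraries themselves, the classes differed in which library was the higher. Nkx castrate 1 was the higher for 6 of 8 chaperones, and Nkx castrate 2 for all 17 entry and glycosylation subunits. The ratio of castrate 2 to castrate 1 ran from 0.504 for Sdf2l1 to 2.45 for Ostc. In the other groups replicate 2 was the higher for 38 of 40 genes (Nkx intact, median ratio 1.24) and 39 of 40 (Clu intact, median ratio 1.31).

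Levels by role gave the same picture in sums. Chaperones and co-chaperones summed to 7309 ± 1429 CPM for Nkx intact, 2338 ± 490 CPM for Nkx castrate and 5782 ± 1558 CPM for Clu intact (SD, n = 2 each). The sums in Nkx intact were 3.40 times those in Nkx castrate for oxidative folding and 3.43 times for degradation, but 1.76 times for the translocon, 1.90 times for the signal peptidase and 1.78 times for the oligosaccharyltransferase. The stress sensors summed to 915 ± 84.6 CPM for Nkx intact and 948 ± 229 CPM for Nkx castrate (SD, n = 2 each), a difference within the spread of the libraries.

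**Figure D3:**
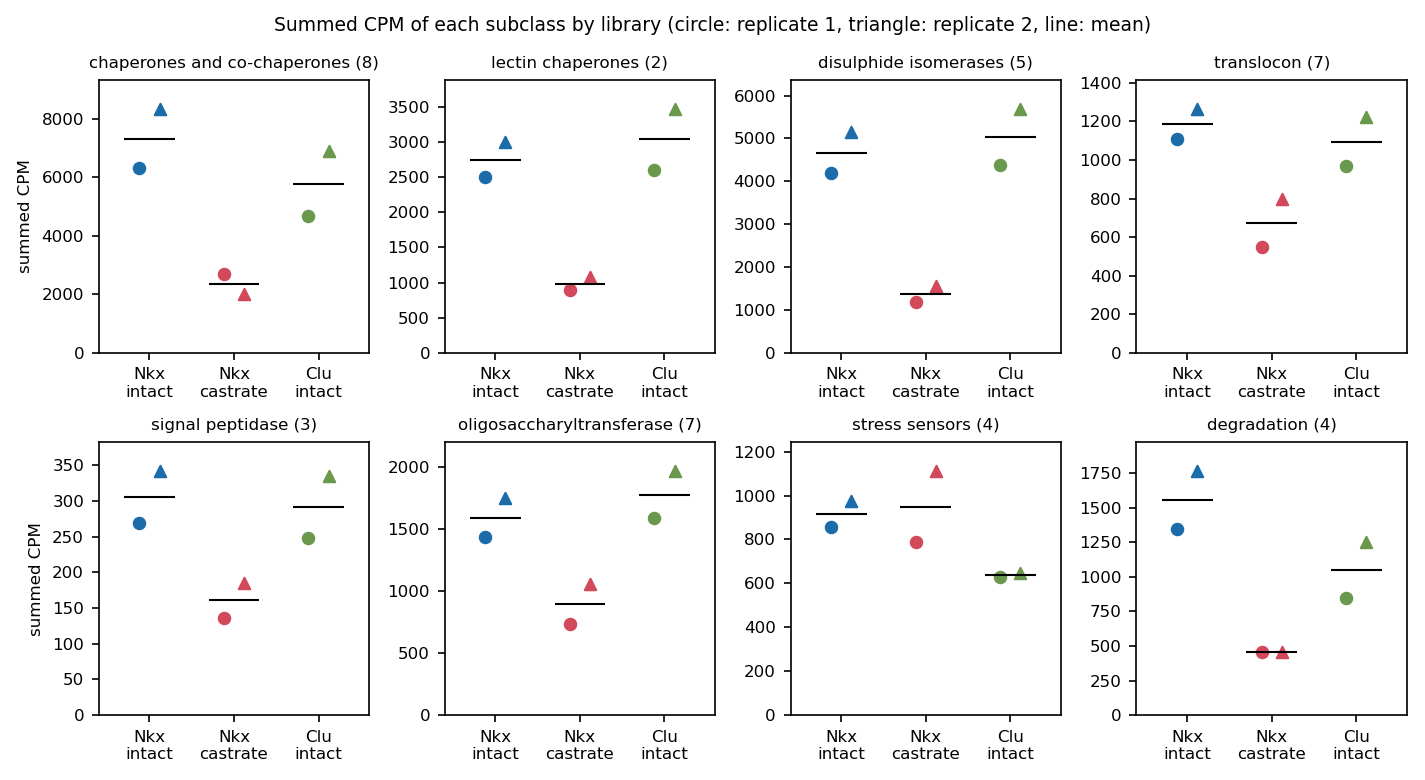
Summed CPM of each of the 8 roles in each library (points: libraries; line: mean of the group; the number of genes is in each title). Both castrate libraries lie below both Nkx intact libraries in 7 roles, and for the stress sensors, at means of 915 CPM (Nkx intact) and 948 CPM (Nkx castrate), they do not.

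Genes that hold an ERSE or ERSE-II match were read against the same fold changes. Of the 10 with a match 9 fell, with a median log2 fold change of -1.94, Canx being the gene not called. Of the 23 with a window and no match 11 fell, with a median of -0.83, and of the 7 with no window 3 fell. All of the 10 are folding or degradation genes, and no entry, glycosylation or sensor gene with a window holds a match. Among folding genes with a window, Sdf2l1, Pdia4, Dnajb9, Pdia3 and P4hb hold no match, and all fell. Their log2 fold changes were -3.83, -2.42, -1.96, -1.40 and -1.26. Match and role thus go together in these genes, and their parts in the fall cannot be told apart. Of 17 other tested genes that hold a match 4 fell, with a median of -0.10. They were Derl3, Ero1b and Krtcap2, which belong to the wider ER list below, and Nucb1, a calcium-binding protein of the Golgi (log2 fold change -1.21). Among the 14 outside that list, 1 fell and the median was 0.01. The difference between genes with and without a match was not tested.

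**Figure D4:**
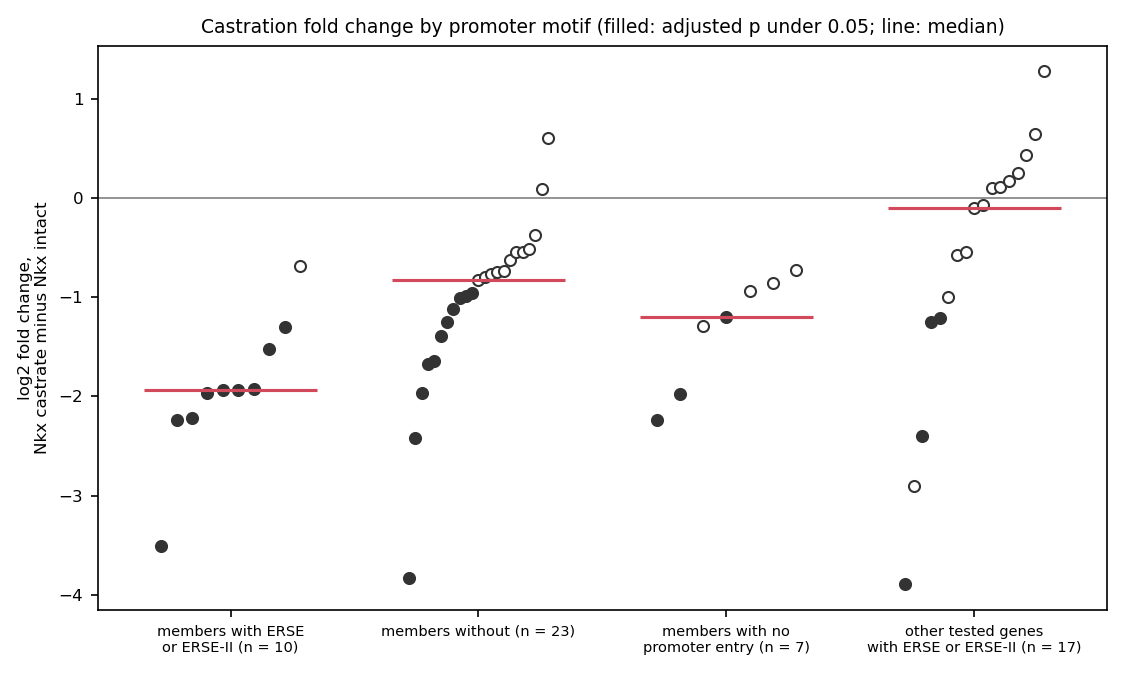
Log2 fold change in Nkx castrate against Nkx intact by promoter content (points: genes; line: median; filled: edgeR adjusted p under 0.05). The 10 genes with an ERSE or ERSE-II match have a median of -1.94, the 23 with a window but no match -0.83, the 7 with no window -1.20, and the 17 other tested genes with a match -0.10.

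Messenger RNAs of secreted products and markers of epithelial and other cells were measured in the same libraries. The 11 listed messenger RNAs of prostate secretions summed to 14864 and 19043 CPM in Nkx intact, to 863 and 1007 CPM after castration, and to 9860 and 8211 CPM in the Clu libraries, so that the castrate sum was the lowest, as it was for the ER genes. Tgm4, a transglutaminase of the seminal fluid, and Pbsn, probasin, made up most of it, at 8396 and 11255 CPM and at 5393 and 6937 CPM in Nkx intact. Of the 10 products tested 6 were lower after castration, 3 did not pass, and Clu was 2.75-fold higher, at 721 and 844 CPM against 323 and 245 CPM. The estimates of 4 of the 10 lay above 0. In Clu intact against Nkx intact 2 products were lower, 3 were higher and 5 did not pass. Their log2 fold changes ran from -5.04 to 12.4, so the sums of the 2 lines differ in make-up. The luminal epithelial markers summed to more after castration, at 10282 and 13589 CPM against 5970 and 5488 CPM. Of those 10 genes 4 were higher, among them the keratins Krt8, Krt18 and Krt19, 5 did not pass, and Ehf, an epithelial transcription factor, was 2.06-fold lower. Of 19 basal markers tested 4 were lower after castration, 0 were higher and 15 did not pass, with the estimates of 14 below 0. In Clu intact against Nkx intact 7 were lower and 0 higher. Krt15, a basal keratin, stood at 1079 and 1091 CPM in Nkx intact and at 1259 and 981 CPM after castration, and was not called. The basal keratins Krt5, Krt14 and Krt17 were not called after castration either. Trp63, the basal transcription factor p63, stood at 249.1 and 238 CPM in Nkx intact, at 61.5 and 34.7 CPM after castration, and at 13.2 and 24.6 CPM in the Clu libraries. Of 20 fibroblast and smooth muscle genes 8 were called higher after castration and 0 lower, with 4.02% of all genes tested higher. Among the 8, Myh11, smooth muscle myosin, stood at 923 and 250 CPM against 64.7 and 44.8 CPM. Acta2, smooth muscle actin, stood at 333 and 98.5 CPM against 28.4 and 13.2 CPM. The estimates of 6 of the 20 lay below 0, among them Col1a1, a collagen, at 46.3 and 6.21 CPM against 79.2 and 72.8 CPM. Tagln, a further smooth muscle gene, lay between 0.37 and 2.69 CPM in these libraries, which overlapped. The sum of 9 seminal vesicle markers was 83.6 and 151 CPM in Nkx intact and at most 4.98 CPM in the other libraries. The part of these changes in the ER results was not tested.

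Comparing Clu intact with Nkx intact asks whether marked cells of the 2 lines differ in these genes while androgen is present. Of the 40 genes 1 was lower in Clu intact, 0 were higher and 39 did not pass, where 5.0% of all genes tested were lower and 6.29% higher. At an unadjusted p under 0.05 the counts for the 40 genes were 3 lower and 0 higher. Over all 13846 genes tested, 1743 were lower and 1891 higher at that cut. The median log2 fold change was -0.12, against -0.01 over all genes tested. The point estimates of 37 genes were within 1.5-fold of Nkx intact, as were those of 56.5% of all genes tested, the exceptions being Creld2, Atf6 and Herpud1. The libraries of the groups overlapped for 23 genes, and among the other 17 Clu intact was the lower for 13 and the higher for 4, with 31.3% and 31.9% of all genes tested in those states.

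The gene called was Atf6, the membrane-bound factor that is cut in the Golgi under stress. It stood at 307 and 309 CPM in Nkx intact and at 178 and 161 CPM in Clu intact, 1.81-fold lower (log2 fold change -0.86, SE 0.21, edgeR adjusted p = 0.0345). The call was lost without any single library of the 2 groups, at edgeR adjusted p between 0.163 and 0.270. Herpud1 lay lowest by estimate, at 218 and 386 CPM against 562 and 644 CPM, and did not pass (log2 fold change -0.997, SE 0.29, edgeR adjusted p = 0.0646), and Creld2, at 255 and 360 CPM against 430 and 568 CPM, did not either (log2 fold change -0.70, SE 0.26, edgeR adjusted p = 0.139). Ern1 stood at 242 and 257 CPM, Xbp1 at 137 and 150 CPM and Eif2ak3 at 69.9 and 77.8 CPM in Clu intact, with none called against Nkx intact. A miss of the threshold does not show that the groups are alike, and the SE of the fold changes reached 0.44 (Ostc).

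Clu intact against Nkx castrate differs in both line and castration, and it uses the same castrate libraries as the first comparison and the same Clu libraries as the one before. Of the 40 genes 25 were higher in Clu intact, 1 was lower and 14 did not pass, where 8.82% of all genes tested were higher and 8.10% lower. The median log2 fold change was 1.05, against -0.003 over all genes tested. Both Clu libraries lay above both castrate libraries for 35 genes, a state held by 31.5% of all genes tested. The 25 were 7 of 8 chaperones, both lectin chaperones, all 5 oxidative folding genes, 3 of 7 translocon, 1 of 3 signal peptidase and 4 of 7 oligosaccharyltransferase subunits, and 3 of 4 degradation genes.

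Sdf2l1 was 10.4-fold higher in Clu intact than in Nkx castrate (100.4 and 141 CPM against 15.3 and 7.69 CPM; log2 fold change 3.39, SE 0.36, edgeR adjusted p = 0.00108). Hsp90b1, at 1335 and 1912 CPM, and Dnajb9, at 78.5 and 130 CPM against 28.7 and 24.2 CPM, were both 3.93-fold higher. Hspa5 was the chaperone that did not pass, at 1872 and 2945 CPM against 1729 and 1087 CPM (log2 fold change 0.77, SE 0.31, edgeR adjusted p = 0.128). Without Nkx castrate 1 Hspa5 was called.

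Creld2 was 7.02-fold higher in Clu intact, at 255 and 360 CPM, Pdia4 5.54-fold, at 961 and 1349 CPM, and Pdia6 4.41-fold, at 828 and 952 CPM. Their edgeR adjusted p were 0.000853, 0.000646 and 0.000946. Calr, at 1734 and 2362 CPM, was 4.06-fold higher (edgeR adjusted p = 0.00111), and Canx, at 875 and 1106 CPM against 381 and 580 CPM, 2.06-fold (edgeR adjusted p = 0.0280). Of these 5 genes, Creld2 was the one whose Clu libraries both lay below both Nkx intact libraries.

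Among the entry genes, Ssr4 was 2.25-fold higher in Clu intact (128 and 156 CPM), Sec61b 1.80-fold (72.7 and 95.2 CPM), Sec61g 1.77-fold (41.3 and 44.4 CPM) and Spcs3 1.99-fold (89.4 and 104 CPM). Among the glycosylation genes Ostc was 3.59-fold higher, at 63.7 and 84.7 CPM against 12 and 29.4 CPM, Rpn1 2.17-fold (391 and 473 CPM) and Rpn2 2.08-fold (394 and 460 CPM). Of the degradation genes Syvn1 (155 and 266 CPM) was 3.23-fold, Sel1l (316 and 422 CPM) 2.80-fold and Herpud1 (218 and 386 CPM) 2.33-fold higher, with edgeR adjusted p of 0.00904, 0.00475 and 0.0243. Each of these folds was smaller than those of Pdia4 and Pdia6.

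Ern1 was the gene lower in Clu intact, at 242 and 257 CPM against 389 and 634 CPM in Nkx castrate, a 2.05-fold difference (log2 fold change -1.04, SE 0.25, edgeR adjusted p = 0.0252). Atf6, Eif2ak3 and Xbp1 did not pass. The Ern1 call was lost without either Clu library and without either Nkx intact library, and leaving out Clu intact 2 took the genes higher in Clu intact from 25 to 11, with 2.78% of all genes higher.

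Across the 3 comparisons, 22 of the 40 genes were lower in Nkx castrate than in Nkx intact, higher in Clu intact than in Nkx castrate, and not called between the intact groups. A further 12 were not called in any comparison. By group means, 20 genes had the order Nkx intact, Clu intact, Nkx castrate from high to low, and 17 had Clu intact highest and Nkx castrate lowest. Xbp1 and Ern1 had Nkx castrate highest and Clu intact lowest, and Atf6 had Nkx intact highest and Clu intact lowest. The place of the intact groups relative to each other lies inside the spread of their libraries for the 23 genes that overlapped. How many of all genes tested hold these joint patterns or orders was not counted. The calls after castration and those of Clu intact against Nkx castrate use the same castrate libraries.

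The other genes of the pathway, 84 listed of which 81 were in the table and 80 were tested, were tested in the same fit. After castration 27 were lower, 1 was higher and 52 did not pass, with a median log2 fold change of -0.63 (all genes tested: 4.59% lower, 4.02% higher, median 0.05). Derl3, a channel-like protein of ER-associated degradation, stood at 93 and 108 CPM in Nkx intact and at 9.26 and 4.14 CPM in Nkx castrate, a 14.9-fold fall (log2 fold change -3.89, SE 0.40, edgeR adjusted p = 0.00195). The disulphide reductase Dnajc10 fell 6.12-fold, from 1818 and 1815 CPM to 222 and 372 CPM, the prolyl isomerase Fkbp11 5.55-fold, from 74.0 and 95.9 CPM to 19.0 and 11.5 CPM, and the folding checkpoint enzyme Uggt1 3.19-fold, from 399 and 462 CPM to 141 and 129 CPM. Against the direction of all others called, Qsox1, a secreted and Golgi sulphydryl oxidase that forms disulphide bonds after the ER, rose 6.71-fold from 33.8 and 29.7 CPM to 203 and 223 CPM (log2 fold change 2.75, SE 0.18, edgeR adjusted p = 0.000439). These 5 genes were called with any library left out, while the count of 27 went to 9 on leaving out Nkx intact 1 and to 4 on leaving out Nkx intact 2, where 1.24% and 0.917% of all genes were lower.

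Between the intact groups 3 of the 80 were lower in Clu intact (Dnajc10 at 694 and 548 CPM, the signal recognition particle subunit Srp9 at 40.6 and 50.5 CPM against 108 and 116 CPM, and Mcfd2 at 78.2 and 96 CPM against 141 and 196 CPM). The thioredoxin-related protein Tmx3 was higher, at 60.7 and 65.0 CPM against 39.3 and 31.4 CPM. All 4 calls were lost without Nkx intact 1 or without Nkx intact 2. Against Nkx castrate 29 were higher in Clu intact and 1 lower, where 8.82% of all genes tested were higher and 8.10% lower. Derl3 was 7.29-fold higher at 40.7 and 58.0 CPM, Pdia5, a further disulphide isomerase, 5.17-fold at 18.1 and 23.3 CPM against 5.44 and 2.51 CPM, Fkbp11 3.21-fold at 48.6 and 49.5 CPM, and Erp44, which retrieves clients from the Golgi, 3.10-fold at 208 and 263 CPM. The gene lower in Clu intact was Qsox1, at 42.6 and 41.1 CPM. The call of Pdia5 was lost without Clu intact 2.

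Transcripts of the branch of the response that runs through Perk to Atf4 had more than 1 pattern. Of 10 listed transcripts 2 were lower after castration, where 4.59% of all genes tested were lower. Chac1, a glutathione-degrading enzyme, stood at 24.4 and 41.2 CPM in Nkx intact against 7.86 and 4.88 CPM. Asns, asparagine synthetase, stood at 81.0 and 114 CPM against 23.4 and 22.0 CPM. The call of Chac1 was lost without Nkx intact 2. Between the intact groups 4 of the 10 were lower in Clu intact. Atf3, a stress-induced factor, stood at 2763 and 2597 CPM in Nkx intact but at 557 and 520 CPM in Clu intact (log2 fold change -2.32, SE 0.18, edgeR adjusted p = 0.000513), and Atf4 at 690 and 760 CPM against 262 and 252 CPM (log2 fold change -1.495, SE 0.17, edgeR adjusted p = 0.00187). In Nkx castrate Atf3 stood at 2291 and 2062 CPM and Atf4 at 646 and 649 CPM, and neither was called against Nkx intact. Ppp1r15a, a phosphatase subunit that reverses Perk's block of translation, and the stress-induced Ddit4 were the other 2 lower in Clu intact, by 1.08 and 0.85 on the log2 scale, and both calls were lost without either Nkx intact library.

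Against Nkx castrate, 4 of the 10 were lower in Clu intact (Atf3, Atf4, Ppp1r15a and Ppp1r15b) and 2 were higher (Chac1 and Asns). Of all genes tested, 8.10% were lower and 8.82% higher. Atf3 was 4.04-fold lower and Atf4 2.52-fold lower, while Chac1 was 3.75-fold higher and Asns 2.55-fold higher. Chac1 and Asns had their lowest level in Nkx castrate, as the folding genes did, and Atf3 and Atf4 had theirs in Clu intact.

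**Figure D5:**
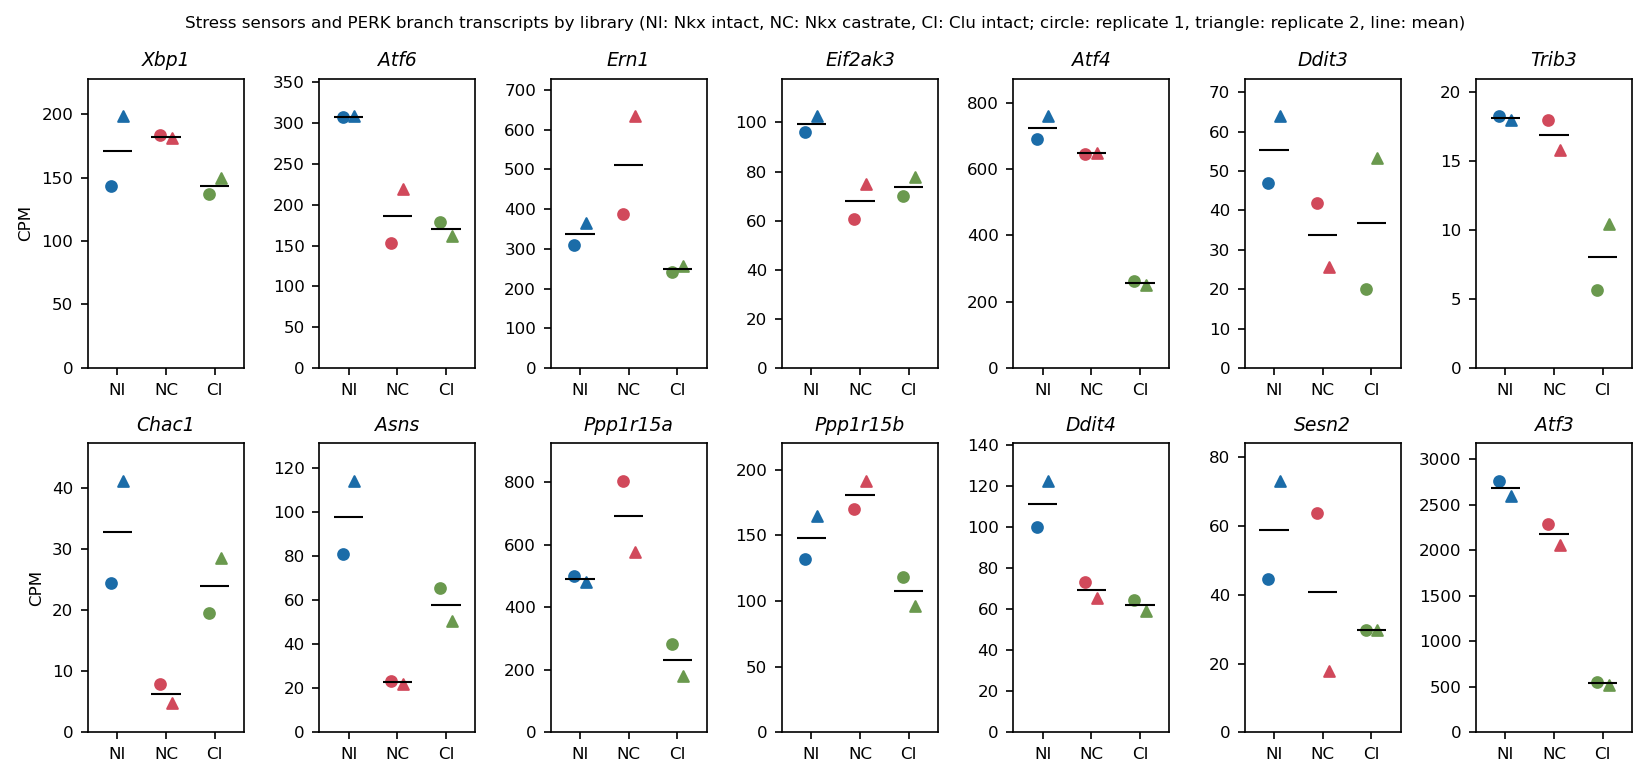
CPM of the 4 stress sensors and of the listed transcripts of the Perk branch in each library (points: libraries; line: mean; NI, Nkx intact; NC, Nkx castrate; CI, Clu intact). Atf3 and Atf4 are lowest in Clu intact, at 557 and 520 CPM and at 262 and 252 CPM, while Xbp1 lies between 137 and 198 CPM in all 6 libraries.

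Cytosolic chaperones were read beside the ER genes. Of 20 genes of the cytosolic Hsp70 and Hsp90 systems and the chaperonin 2 were lower after castration and 0 higher, with a median log2 fold change of -0.22, where 4.59% of all genes were lower. The 2 were the Hsp40 co-chaperones Dnajb1 (660 and 704 CPM against 346 and 213 CPM) and Dnaja1 (273 and 296 CPM against 142 and 130 CPM), and both calls were lost without either Nkx intact library. Between the intact groups 1 was lower in Clu intact (Dnajb1, at 256 and 294 CPM), and against Nkx castrate 1 was higher (Dnaja1, at 216 and 318 CPM) and 1 lower (the chaperonin subunit Cct4, at 105 and 112 CPM against 150 and 189 CPM). The difference between the ER and the cytosolic genes was not tested.

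Some levels are less certain than others. Exons of other genes overlap 21.6% of the exon bases of Hsp90b1, 19.5% of Spcs1 (shared with Glt8d1), 17.3% of Sec61a1 and 10% of Eif2ak3, and whether the counting used strand is not given. Separately counted pseudogenes of Calr and Spcs2 held 16 to 88 and 10 to 34 reads, against at least 6714 and 1304 reads for the genes themselves.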

How the data were processed

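For 6 libraries of sorted mouse prostate cells, the authors deposited a table of raw counts by gene symbol. Build GRCm39, STAR 2.7.9a, featureCounts, Subread 2.0.1 and FastQC 0.11.9 are named in the submitters' processing notes. The annotation, strand setting and handling of molecular identifiers and multiply aligned reads were not given in the sources used here. In R 4.3.3, edgeR 4.0.16 filtered genes (filterByExpr, 13846 kept), scaled by TMM, and fitted a mean for each of 3 groups over all 6 libraries (3 residual degrees of freedom). Tests were two-sided quasi-likelihood F tests with Benjamini-Hochberg adjustment. SE come from the fit. Replicate numbers were not treated as pairs. Alternatives were other scalings, filters, DESeq2 1.42.0, limma-voom (limma 3.58.1), a 2-fold minimum, a replicate block, the 2 groups alone, and leaving out each library.

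The genes and lists were chosen with earlier results of these data known. Named in full are, per role and comparison, up to 3 called genes with the largest change and at least 10 CPM, all sensors, and up to 4 genes per direction of the other lists. Exon lengths are GENCODE M21 unions, and promoters are RefSeq windows, both on an earlier build than the counts. Protein sequences were not used here.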

Additional observations from a re-analysis of the deposited data

How the results depend on the processing

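No fold change of a called gene changed sign under any alternative. The share of all genes called also moved with the library left out. The ranges given next for leaving out a library therefore do not measure the ER genes alone. The genes lower in Nkx castrate than in Nkx intact were 23 in the fit described and 7 to 37 on leaving out a library, and those higher 0 and 0 to 1. Those lower in Clu intact than in Nkx intact were 1 and 0 to 5. Against Nkx castrate, those higher in Clu intact were 25 and 11 to 33, and those lower 1 and 0 to 1. With the replicate number as a block, 31 genes were lower after castration, 2 lower in Clu intact than in Nkx intact, and 32 higher and 1 lower against Nkx castrate, and no call was lost. Over all genes tested the shares were 5.78% and 6.38% lower and, against Nkx castrate, 10.6% higher and 9.46% lower. The block rests on 2 numbers, and same-numbered libraries deviated together at r = 0.0901, 0.0437 and 0.235 in the 3 comparisons. The genes lower in Clu intact than in Nkx intact were 3 with no filter, 5 with only the 2 groups, 2 in DESeq2 and 0 with a 2-fold minimum. Of all genes tested, 6.02%, 11.8%, 8.2% and 4.1% were lower in those settings. Ern1, lower in Clu intact than in Nkx castrate, left 0 such genes with only the 2 groups. With only the 2 groups 19 genes were lower after castration (Hspa5, Sec61g, Rpn1 and Rpn2 lost), and with a 2-fold minimum 21 (Rpn1 and Rpn2 lost). The shares of all genes lower were 2.78% and 3.73%. Upper-quartile scaling ended the call of Hspa5 after castration (edgeR adjusted p = 0.0582). Without the 50 most abundant genes 38 of the 40 could be fitted and 21 were lower, where 4.58% of all genes were lower. Leaving out a library moved 2 called folds over 1.5 times: in Clu intact against Nkx castrate Ostc was at log2 2.63 without Nkx castrate 2 and Sdf2l1 at 3.97 without Nkx castrate 1. The cause of these changes was not tested. With 2 libraries a group and 3 residual degrees of freedom, small changes of the entry and sensor genes could not be resolved.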
